A study of Drosophila melanogaster with 6 samples.

Results

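After copper induction of HMR, 352 HMR ChIP-Seq peaks lay on the autosomal arms 2L, 2R, 3L and 3R, away from transcript starts, at positions where the list without induction had no peak. They are called distal induced-only peaks. A peak was a member when it stood in the induced list, lay on a chromosome other than X, Y or 4, overlapped no peak of the uninduced list by 1 bp or more, and had its centre more than 250 bp from every annotated transcript start. These 352 peaks belong to the 1981 of the induced list and are 46.0% of its 766 autosomal distal peaks, a share near the 47.2% of all its peaks that had no uninduced counterpart. The arms held 72 (2L), 80 (2R), 102 (3L) and 98 (3R) of them. Of the 352, 197 lay between genes (56.0%), and 51.2% of the distal peaks shared by both lists did. A transcript end lay within 500 bp of 105 (29.8%, against 27.3% of shared peaks). Words of the insulator protein CTCF were in 37 (10.5%, against 5.07%). The longer consensus of Su(Hw), another insulator protein, was in 21 (5.97%, against 13.8%). AAGTATGC, which fits an end of that consensus, was in 52 (14.8%, against 29.0%). These words differ in length and number, so their shares do not rank the motifs.

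All samples were *Drosophila melanogaster* SL2 cells, also called S2 cells, a macrophage-like line from embryos. They had been stably transfected with FLAG-HA-HMR behind pMT, the copper-inducible metallothionein promoter, and selected with hygromycin, and the study's methods add Myc-LHR behind the same promoter. The induced cells received 250 µM CuSO4 for 20 to 24 h and gave 2 ChIP libraries, made with the rat antibody 2C10 against HMR, and 2 input libraries. The uninduced cells carried the same transgenes without added copper and gave 1 ChIP library and 1 input library. The antibody sees the endogenous protein as well as the transgenic one. Copper, the transgene products and the number of libraries changed together between the conditions, so their parts in a new peak cannot be told apart. Each condition has 1 peak list of 200 bp intervals without heights, scores or read counts, which leaves the depth of each call unknown and gives no value here a replicate error. As the peaks of a list do not replicate a condition, p-values were not computed. The intervals given are Wilson 95% intervals and cover counting error only. Peak positions give no expression, so the cell type could not be checked against markers.

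HMR (Hybrid male rescue) is a DNA-associated protein that, with its partner LHR, is required for the death of hybrid males between *D. melanogaster* and *D. simulans*. In pure species it is found at centromeric and other heterochromatin and at many sites in euchromatin, a part of them bound by insulator proteins. Insulator proteins mark borders between chromatin regions. Su(Hw) and CTCF are zinc finger proteins that bind their own sequence words and recruit the co-factor CP190. DREF binds the DRE, and M1BP binds Motif 1, both of which are elements of promoters of widely expressed genes. GFZF, the other hybrid incompatibility protein of the study, is known from promoters that carry Motif 1.

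The sequences of 6 of these peaks show the words that the results on motifs turn on, with the letters of each match in capitals. They are the forward strand of the Release 6 assembly (dm6), 5′ to 3′. The Reg-2, dco and Moca-cyp peaks were taken for CTCF, which was sought as AGGTGGCG, AGATGGCG or AGGGGGCG on either strand. The HGTX and scrt peaks were taken for the longer Su(Hw) consensus, and the Snap25 peak for the DRE, TATCGATA.
Reg-2 peak (CTCF), chr3L:607023-607222: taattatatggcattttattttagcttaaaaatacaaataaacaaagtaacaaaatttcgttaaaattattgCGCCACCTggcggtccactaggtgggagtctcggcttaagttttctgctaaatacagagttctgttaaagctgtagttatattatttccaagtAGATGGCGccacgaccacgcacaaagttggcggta
dco peak (CTCF), chr3R:31061414-31061613: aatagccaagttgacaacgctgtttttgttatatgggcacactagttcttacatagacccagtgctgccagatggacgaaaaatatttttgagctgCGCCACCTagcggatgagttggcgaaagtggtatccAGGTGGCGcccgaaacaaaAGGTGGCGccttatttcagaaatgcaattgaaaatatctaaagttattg
Moca-cyp peak (CTCF), chr3R:28345415-28345614: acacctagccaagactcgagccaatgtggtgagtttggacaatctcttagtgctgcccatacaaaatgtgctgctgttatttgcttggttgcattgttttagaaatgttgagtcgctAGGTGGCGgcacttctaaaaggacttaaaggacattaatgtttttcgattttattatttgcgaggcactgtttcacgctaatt
HGTX peak (Su(Hw)), chr3L:14603227-14603426: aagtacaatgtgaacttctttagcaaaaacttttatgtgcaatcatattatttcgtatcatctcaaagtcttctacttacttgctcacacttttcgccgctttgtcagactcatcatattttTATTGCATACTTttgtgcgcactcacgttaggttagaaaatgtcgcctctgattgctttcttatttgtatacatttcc
scrt peak (Su(Hw)), chr3L:4002044-4002243: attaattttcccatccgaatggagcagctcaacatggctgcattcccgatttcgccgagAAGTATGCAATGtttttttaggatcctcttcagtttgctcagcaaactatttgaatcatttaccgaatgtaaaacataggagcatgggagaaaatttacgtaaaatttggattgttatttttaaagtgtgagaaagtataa
Snap25 peak (DRE), chr3L:24293361-24293560: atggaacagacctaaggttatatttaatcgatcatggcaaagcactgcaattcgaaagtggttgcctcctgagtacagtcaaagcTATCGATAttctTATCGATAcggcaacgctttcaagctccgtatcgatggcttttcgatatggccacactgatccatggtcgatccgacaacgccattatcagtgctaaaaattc
The Reg-2 peak stood earliest in the list of all distal induced-only peaks, at line 81. It lies between genes, 554 bp from the start of Reg-2, a gene first described for its daily rhythm, and holds a CTCF word on each strand. The dco peak, 304 bp from a start of the gene for a casein kinase of the circadian clock, holds 3 CTCF matches. The Moca-cyp peak lies 346 bp from a transcript end and 4715 bp from the nearest start. The HGTX peak lies 3787 bp from the start of that homeobox gene. The scrt peak lies between scrt, 8141 bp away, and CG14985, whose start is nearer at 1330 bp. The Snap25 peak lies in intron 7 of the gene for a synaptic SNARE protein, 2597 bp from the nearest start, and holds 2 copies of the DRE.

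The rule used the overlap of the lists and the distance to a start, so those values describe the choice. Of the 766 autosomal distal peaks of the induced list, 352 were induced-only, which is 46.0% (42.5 to 49.5). The same share was 46.4% for autosomal promoter peaks (376 of 810, 43.0 to 49.9) and 47.2% for all peaks of the induced list (936 of 1981, 45.1 to 49.5). The other 414 autosomal distal peaks overlapped an uninduced peak and are called shared. In the uninduced list, 134 distal peaks had no induced counterpart and are called distal uninduced-only. The gap from a distal induced-only peak to the nearest uninduced peak had a median of 27249 bp, and 14 peaks lay within 500 bp of one. The smallest gaps were 68 bp and 110 bp, for neighbouring peaks on 2R at 17147022 to 17147221 and 17146444 to 17146643, and 72 bp, in an intron of Fur1, the gene of a furin-type protease. Shared peaks at the other side of this limit overlapped an uninduced peak by 17, 21 and 27 bp. Nearest to the limit on start distance were members 252 bp from a start of CG10418, 252 bp from one of Orc2 and 254 bp from one of Zmynd8. Just inside 250 bp, and so counted at promoters, were peaks 246 bp from Fancm, 245 bp from Polr2E and 240 bp from CG33775.

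Most distal induced-only peaks lay between genes. The centre was intergenic in 197 peaks (56.0%, 50.7 to 61.1), in an intron in 117 (33.2%, 28.5 to 38.3) and in an exon in 38 (10.8%, 7.97 to 14.5). Of the exonic ones, 27 were in a 3′ UTR, 5 in coding sequence, 3 in a 5′ UTR and 3 in a non-coding transcript. As a background, the 4 arms were divided into tiles of 200 bp, and the 502621 tiles whose centre met the same limit on start distance were taken as a census. Among those tiles 32.0% were intergenic, 43.7% intronic and 24.3% exonic. Coding sequence held 1.42% of the induced-only peaks (0.608 to 3.28) and 17.1% of the tiles. The tiles include positions that uniquely mapped reads cannot cover, and the part of this in the comparison was not tested. Shared distal peaks were intergenic in 51.2% (46.4 to 56.0) and intronic in 39.1% (34.5 to 43.9), with intervals that overlap those of the induced-only peaks. Distal uninduced-only peaks had another distribution, with 27.6% between genes (20.7 to 35.7) and 66.4% in introns (58.1 to 73.9).

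**Figure D1:**
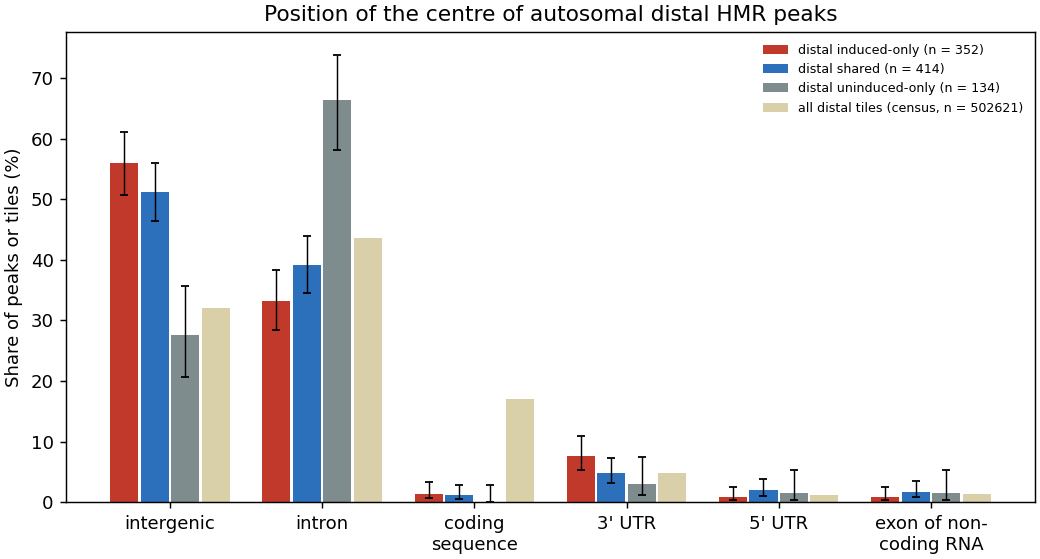
Share of peaks or tiles, in percent, by what the annotation has at the centre, for distal induced-only peaks (n = 352), distal shared peaks (n = 414), distal uninduced-only peaks (n = 134) and all distal tiles of 200 bp (n = 502621). Bars start at 0 and lines are Wilson 95% intervals. Induced-only peaks are 56.0% intergenic, close to the 51.2% of shared peaks and above the 32.0% of tiles, and few of them lie in coding sequence.

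Among the intergenic peaks, the flanking genes pointed the same way in 115 (58.4%), away from each other in 46 (23.4%) and towards each other in 35 (17.8%). The tiles had 50.7%, 21.3% and 24.4% in these classes. The gaps between genes that held induced-only peaks were short, with a median of 4822 bp, near the 4680 bp of shared peaks and below the 18191 bp over intergenic tiles. The tile median weights each gap by its length. The genes around the intronic peaks had a median length of 37765 bp, against 38608 bp for shared and 25447 bp for uninduced-only peaks, and an intronic position falls more often in a longer gene. Introns were numbered on the canonical (representative) transcripts of protein-coding genes, and 93 intronic induced-only peaks had their centre in such an intron. Of these, 33 were in a first intron (35.5%, 26.5 to 45.6), an interval that includes the 31.9% of the tiles counted in the same way. The median distance to the nearest start was 1844 bp for induced-only peaks, 1830 bp for shared peaks, 1618 bp for uninduced-only peaks and 3838 bp for the tiles.

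Transcript ends were a common neighbour. An annotated transcript end lay within 500 bp of the centre of 105 distal induced-only peaks (29.8%, 25.3 to 34.8), 113 shared peaks (27.3%, 23.2 to 31.8), 11 uninduced-only peaks (8.21%, 4.65 to 14.1) and 11.1% of the tiles. A closer limit of 250 bp gave 19.6% of induced-only peaks, 18.1% of shared peaks and 6.05% of the tiles. Positions near a start can be near an end as well, so the share was also taken by start distance. With a start 251 to 1000 bp away, 45 of 124 induced-only peaks were near an end (36.3%, 28.4 to 45.0), and the 28.7% of the tiles lies inside that interval. With every start over 1000 bp away, 60 of 228 were (26.3%, 21.0 to 32.4), above the 7.27% of the tiles. Between genes, 68 of 197 induced-only peaks (34.5%, 28.2 to 41.4) and 7.08% of the tiles were near an end. Of the 38 exonic peaks, 27 were (71.1%, 55.2 to 83.0), against 30.9% of the exonic tiles. Induced-only and shared peaks had overlapping intervals in each of these classes. Transcript ends were taken up, with these limits, after the data were seen.

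**Figure D2:**
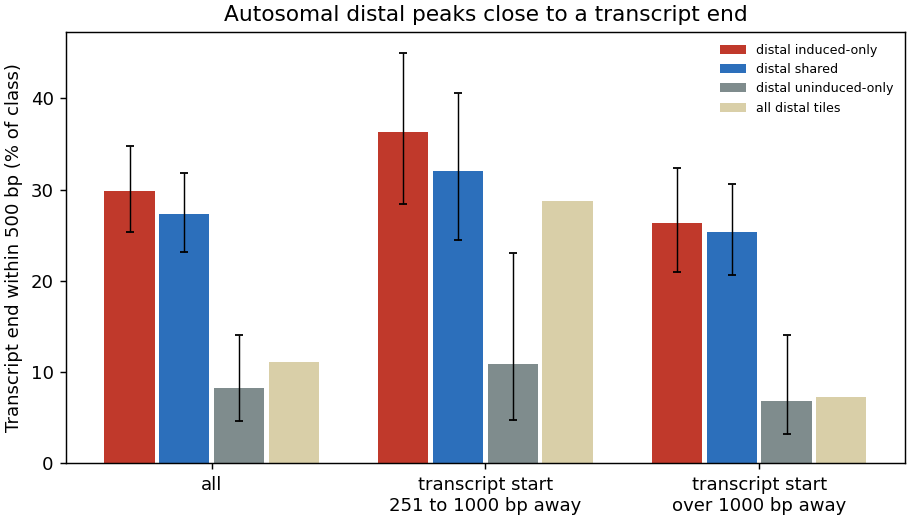
Share of each class, in percent, with a transcript end within 500 bp of the centre, for all positions and divided by the distance to the nearest transcript start, in distal induced-only, shared and uninduced-only peaks and all distal tiles. Lines are Wilson 95% intervals. Away from starts, 26.3% of induced-only peaks lie near an end, against 7.27% of the tiles.

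CTCF words were found in 37 distal induced-only peaks, which is 10.5% (7.72 to 14.2). They were found in 21 shared peaks (5.07%, 3.34 to 7.63), 1 uninduced-only peak (0.746%) and 1.58% of the tiles. The interval of the induced-only peaks lies above that of the shared peaks by a narrow margin, and this difference was not tested. The intervals overlapped where every start was over 1000 bp away (11.8% of induced-only and 6.23% of shared peaks), in a window of 400 bp (11.6% and 6.76%) and within lines 1 to 990 or the later lines of the list taken alone. By word, AGGTGGCG was in 21 induced-only peaks (5.97%) and 1.93% of shared peaks, AGATGGCG in 21 (5.97%) and 3.14% of shared peaks, and AGGGGGCG in none of the induced-only peaks. The similar word AGAGGGCG was not sought as a CTCF word. It was in 10 induced-only peaks (2.84%), 1.21% of shared peaks and 0.367% of the tiles, and its overlap with the 37 peaks was not counted. The peaks were poor in G and C, with a median GC content of 36.5%, against 38.0% in shared peaks and 42.0% in the tiles. The tiles were not matched for GC content. The part of base composition in this and the other motif shares was not tested. Of the 37 peaks, 25 were intergenic, 9 intronic and 3 exonic, 8 held 2 or more matches, 10 lay within 500 bp of a transcript end, and 0 lay in the pericentromeric parts of the arms. Within the intergenic class the share was 12.7% of induced-only peaks (8.75 to 18.1), 5.66% of shared peaks (3.27 to 9.63) and 1.51% of the tiles.

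Of the 50 CTCF matches in the 37 induced-only peaks, 33 (66.0%) lay within 50 bp of the peak centre, with a median distance of 38.5 bp. In shared peaks 13 of 23 (56.5%) did. In induced-only peaks the share within 50 bp was lower for matches of the MRE, the word of the metal-responsive factor MTF-1 (52.7%). It was also lower for those of GATA factors (53.2%) and the heat shock element (53.7%). It was 62.5% for AP-1 words (10 of 16), 66.7% for the E-box (4 of 6) and 67.6% for pairs of the BEAF-32 word (25 of 37). For Su(Hw) it was 72.7%, so a central place was not particular to CTCF words. Matches from 1 peak are not independent. The base after the word, on its strand, was C in 40 of 50 matches (80.0%) and in 21 of 23 in shared peaks (91.3%). T stood before it in 32 of 50 (64.0%). The bases beside these words were not counted in the tiles, so these shares have no background. In list order, the CTCF peaks named after the Reg-2 peak lay in intron 2 of PAN3, whose product takes part in shortening poly(A) tails, at Moca-cyp, at dco, between Jhbp1 and CG14662, in intron 4 of Tet, in the coding sequence of CG10357, between CG46320 and DnaJ-1, a heat shock co-chaperone gene, and between Sfp84E and Elovl7.

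Su(Hw) words stood at a lower share in induced-only than in shared peaks. They were in 21 distal induced-only peaks (5.97%, 3.93 to 8.95), 57 shared peaks (13.8%, 10.8 to 17.4), 5 uninduced-only peaks (3.73%, 1.60 to 8.44) and 0.370% of the tiles. The intervals of induced-only and shared peaks do not overlap, and both lie above the tiles. This difference was not tested. The share in induced-only peaks was 5.56% in lines 1 to 990 of the induced list and 6.25% in the later lines, where shared peaks had 15.9% and 8.40%. The intervals overlapped in the later lines, and also where every start was over 1000 bp away (8.33% of induced-only and 13.8% of shared peaks). Of 22 matches in induced-only peaks, 16 (72.7%) lay within 50 bp of the centre. The peaks with a match lay between genes in 13 cases and in introns in 7. The first by line were the HGTX peak, one between lncRNA:CR45320 and Inos, the scrt peak, and one 662 bp from a start of Cnx99A, which encodes a calnexin. Uninduced peaks lay 139 bp from the Inos peak and 268 bp from the Cnx99A peak. Next came one between Fatp3 and betaTub60D, one in intron 26 of Dys, the fly dystrophin gene, one between CG43210 and fray, one in intron 4 of Nplp1, a neuropeptide precursor gene, one between osp and CG15282, and one in intron 2 of CG30015. The peak between osp and CG15282, on 2L at 14706253 to 14706452, was the only induced-only peak with a Su(Hw) and a CTCF match.

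Words of unlike length and number were sought, so the counts do not rank the motifs. The DRE was in fewer of these peaks than the words of CTCF and Su(Hw), with a share above that of the tiles. It was in 10 distal induced-only peaks (2.84%, 1.55 to 5.15), 5 shared peaks (1.21%, 0.517 to 2.80), 1 uninduced-only peak and 0.367% of the tiles. All 10 stood after line 990 of the list (10 of 208, 4.81%), with 0 of 144 before it (upper bound of the interval 2.60%). The intervals of induced-only and shared peaks overlap. Besides Snap25, the peaks lay in introns of sima, the gene of the fly hypoxia-inducible factor, and Nipped-B, a cohesin loader gene. They also lay in the 3′ UTR of exu, 252 bp from Orc2, an origin recognition complex gene, 406 bp from stj, 465 bp from tej and 448 bp from Nhe3, between lncRNA:CR44282 and bs, and 6657 bp from lncRNA:CR46075 in a gap of 245765 bp. The Nipped-B peak has its centre in a transposable element. Motif 1 was in 2 induced-only peaks (0.568%, 0.156 to 2.05), between tin and bap and between Slmap and CG40006, in 1 shared peak (0.242%) and in 0.0209% of the tiles. Together, a CTCF, Su(Hw), DRE or Motif 1 match was in 66 induced-only peaks (18.8%), 80 shared peaks (19.3%), 7 uninduced-only peaks (5.22%) and 2.32% of the tiles.

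**Figure D3:**
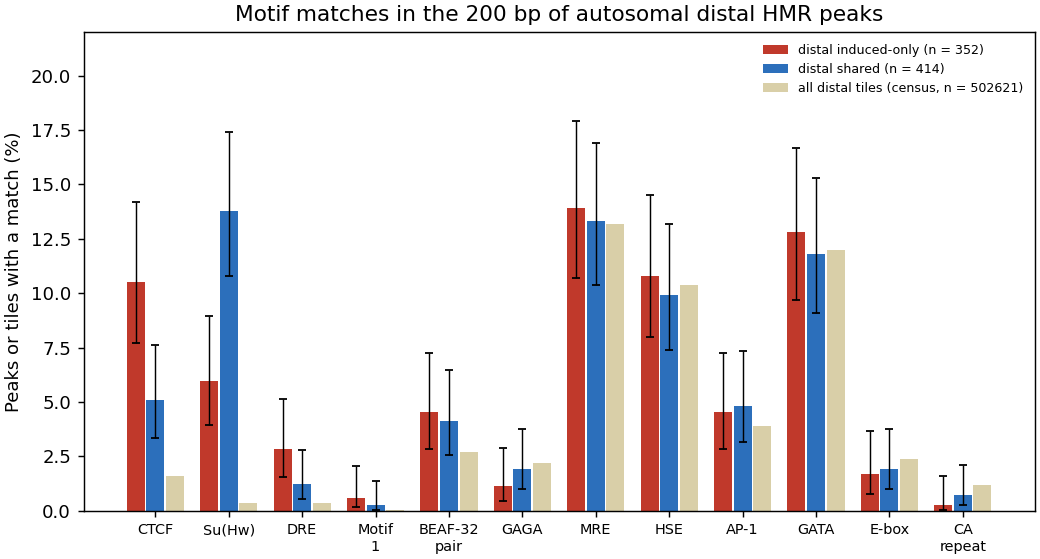
Share of distal induced-only peaks (n = 352), distal shared peaks (n = 414) and all distal tiles (n = 502621) with a match to each of 12 motifs, in percent, with Wilson 95% intervals for the peaks. CTCF is in 10.5% of induced-only and 5.07% of shared peaks and Su(Hw) in 5.97% and 13.8%, while MRE, HSE and GATA stand near the tiles.

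Elements of the response to copper and heat had shares near those of the tiles. The MRE (TGCAC or TGCGC, then any base and C), which the metal-responsive factor MTF-1 binds, was in 49 distal induced-only peaks (13.9%, 10.7 to 17.9), 13.3% of shared peaks and 13.2% of the tiles. The heat shock element (HSE, GAANNTTC or TTCNNGAA) was in 38 (10.8%, 7.97 to 14.5), 9.90% of shared peaks and 10.4% of the tiles. For both, the tile share lies inside the interval of the induced-only peaks. The same held for 5 further words. AP-1, in which any base separates TGA from TCA, was in 16 peaks (4.55%) and 3.91% of the tiles. The word of GATA factors, TGATAA, was in 45 peaks (12.8%) and 12.0% of the tiles. The E-box, CACGTG, was in 6 peaks (1.70%) and 2.37% of the tiles. The word of GAGA factor, GAGAGAG, was in 4 peaks (1.14%) and 2.21% of the tiles. Runs of at least 6 CA units were in 1 peak (0.284%) and 1.18% of the tiles. Pairs of CGATA, the word of BEAF-32, were in 16 peaks (4.55%, 2.82 to 7.26), 4.11% of shared peaks and 2.69% of the tiles, just under that interval. This word overlaps the DRE, and 5 peaks had both. A match describes these letters only, and binding of the factors was not measured.

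**Figure D4:**
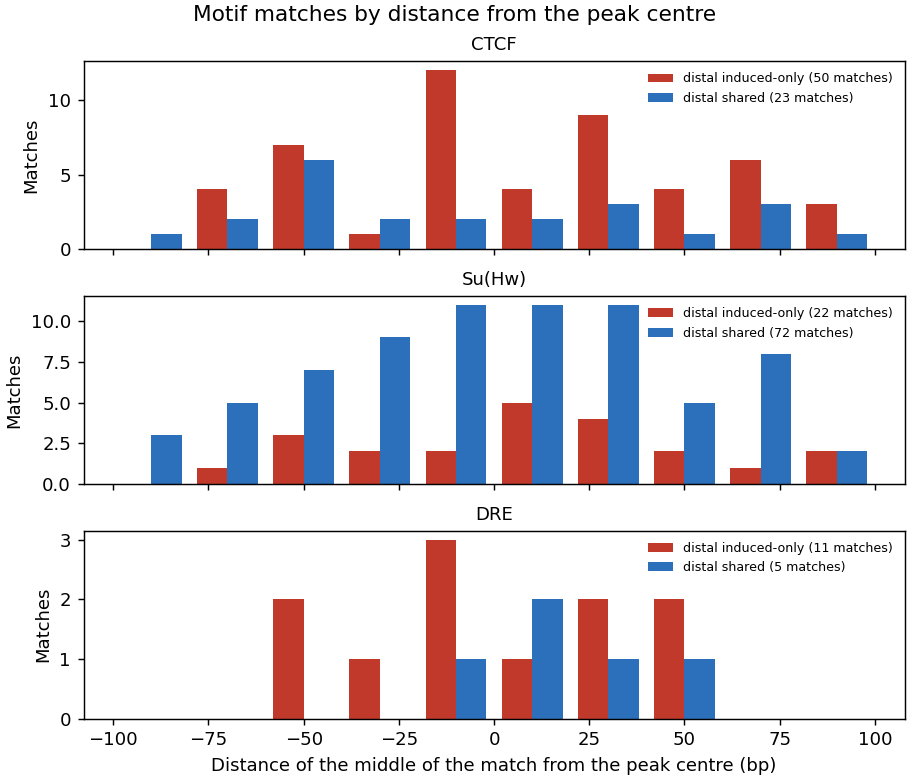
Number of CTCF, Su(Hw) and DRE matches in bins of 20 bp by the distance of their middle from the peak centre, for distal induced-only and distal shared peaks. In induced-only peaks 33 of 50 CTCF, 16 of 22 Su(Hw) and 8 of 11 DRE matches lie within 50 bp of the centre.

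All words of 8 letters were also counted, without a motif list. Of those held by at least 10 distal induced-only peaks, the 5 with the highest ratio to the tiles are given, as a description, since they were picked by that ratio. ACCTAGCG was in 11 peaks (3.12%), 0.725% of shared peaks and 0.123% of the tiles. AAGTATGC was in 52 (14.8%), 29.0% of shared peaks and 0.900% of the tiles, CACCTAGC in 11 (3.12%), 0.966% of shared peaks and 0.207% of the tiles, AGGTGGCG in 21 (5.97%), and AGCATACT in 19 (5.40%), 9.42% of shared peaks and 0.429% of the tiles. AAGTATGC fits the end of the Su(Hw) consensus at which the scrt match begins, and 18 of its 52 peaks met the full consensus. None of the 19 peaks with AGCATACT did. That word has A where the HGTX match has T, so it cannot itself lie within a match to the consensus. In the dco peak ACCTAGCG overlaps the end of a CTCF match, and 5 of its 11 peaks held such a match.

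Of the distal induced-only peaks, 155 had their centre inside a gene, and these lay in 136 genes, of which 21 also held a shared distal peak. In 149 cases the host was protein-coding. Genes with 2 or more peaks numbered 14, and most are long. Myo81F (FBgn0267431), an unconventional myosin gene that spans 1965857 bp of pericentromeric 3R from 567076 to 2532932, held 5, all intronic. SNF4Agamma, the gene of the regulatory gamma subunit of AMP-activated kinase, held 3 intronic peaks. The gene smash, whose product acts at epithelial junctions, held 3 as well, in coding sequence at 4705657 to 4705856 and in its 3′ UTR at 4711433 to 4711632 and 4712042 to 4712241, with a further induced-only peak 432 bp from its start. The last of the 3′ UTR peaks has its centre 51 bp from the transcript end.

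The genes with 2 peaks have varied roles. EcR encodes the ecdysone receptor and Eip74EF an ETS transcription factor that ecdysone induces. Both peaks of EcR (6133158 to 6133357 and 6141481 to 6141680 on 2R) and both of Eip74EF (17563055 to 17563254 and 17597031 to 17597230 on 3L) were intronic, and the one in Eip74EF that lies farther from a start, at 20505 bp, held a CTCF word. AGO3 encodes a piRNA-binding Argonaute, pum a translational repressor, ed a cell adhesion protein, skd a Mediator subunit and Snap25 a SNARE protein. The others were CG31637, CG34355, CG9380 and sick. In pum 1 peak lay in the 3′ UTR and 1 in intron 6, and in CG34355 both lay in a 3′ UTR. The peaks of skd lay 890 bp apart in intron 2, and those of CG9380 766 bp apart. In all, 18 induced-only peaks had another induced peak centre within 1000 bp, and neighbouring peaks are not independent.

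Of the other peaks that stood earliest in the list, the one at line 97 lay between inaC and Pkc53E, which both encode protein kinase C, 4499 bp from the start of Pkc53E. Lines 102 and 104 were in introns of PAN3 and Eip63F-1, a calcium-binding protein gene. Line 138 was in the 3′ UTR of lwr, which encodes the SUMO-conjugating enzyme, and had an uninduced peak 294 bp away. Lines 140 and 145 were intergenic, 10871 bp from lncRNA:CR44216 and 1930 bp from CG13285, and line 140 had an uninduced peak 245 bp away. Line 160 was 270 bp from CG32365, line 164 was 1829 bp from scaf, and line 165 was in intron 7 of HnRNP-K. The peaks farthest from any start lay in the pericentromeric parts of the arms, 292701 bp from a start on 2R, 254741 and 145238 bp away in Myo81F, 145406 bp away in Pzl and 125162 bp away on 2R.

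For a set of gene lists, a gene was counted when a distal induced-only peak lay in it or within 5000 bp. Over all 15233 genes of the arms 794 were counted (5.21%), and 922 (6.05%) for shared distal peaks. Of 10 genes of the ecdysone response 4 were counted (40.0%), namely EcR, Eip74EF, Eip78C and ftz-f1, each through an intronic peak. Eip78C and ftz-f1 both encode nuclear receptors. Shared peaks also counted 4 of the 10. These are long genes, a longer gene is more often counted, and the part of length was not tested. Of 12 blood cell genes 3 were counted by induced-only peaks, namely ush, Hml and Dscam1, while shared peaks counted 5. The gene ush, whose product is a co-factor of GATA factors, was counted through a peak in the 3′ UTR of its neighbour lwr. That peak had an uninduced peak 294 bp away. Hml, a hemocyte clotting gene, had a peak 589 bp from its start, and Dscam1, an immune receptor gene, had an intronic peak. Of 12 adhesion genes Ten-m, a teneurin gene, was counted. Of 19 copper and heat shock genes MTF-1 was counted, through an intergenic peak downstream of it. That peak lies between Bet3 and Srg3, 436 bp from a start of Srg3, and had an uninduced peak 203 bp away. Outside that list, and chosen after the peaks were seen, a peak lay in an exon of lncRNA:Hsromega, a heat-inducible non-coding gene, and the CTCF peak by DnaJ-1 lay 148 bp from its end. None of 8 Hox genes and none of 19 genes for HMR, GFZF and insulator proteins was counted, where shared peaks counted 3 and 2. The lists are short, and no count was tested.

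Repeats held a small share. Distal induced-only peaks overlapped an annotated transposable element in 19 cases (5.40%, 3.48 to 8.28), shared peaks in 14 (3.38%), uninduced-only peaks in 4 (2.99%) and tiles in 6.86%. In line order the first were at a jockey copy, a BS copy beside smash, a G5 copy in an intron of nAChRalpha4, a gypsy8 copy and an R1 copy. The pericentromeric parts held 38 induced-only peaks (10.8%, 7.97 to 14.5), 27 shared peaks (6.52%, 4.52 to 9.32) and 15.8% of the tiles. With those parts left out, 9 of 314 induced-only peaks overlapped an element (2.87%, 1.52 to 5.36), 2.58% of shared peaks did and 4.82% of the tiles did. A run of 30 identical bases was shared with another member by 10 induced-only peaks, and peaks that share sequence are not independent. Only uniquely mapped reads were used, which limits what could be called in repeats.

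The line order of the list has no stated meaning, and the members stood late in it, at a median line of 1146, against 624 for shared distal peaks. With the lines divided into 10 equal parts, induced-only peaks made up 11 of 79 autosomal distal peaks at the top of the list (13.9%, 7.96 to 23.2) and 35 of 41 at its end (85.4%, 71.6 to 93.1). The overlap that defines the members enters these values, so they are a description. CTCF shares of induced-only peaks were alike along the list, with 15 of 144 (10.4%) in lines 1 to 990 and 22 of 208 (10.6%) after them. In shared peaks they were 17 of 295 (5.76%) and 4 of 119 (3.36%).

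**Figure D5:**
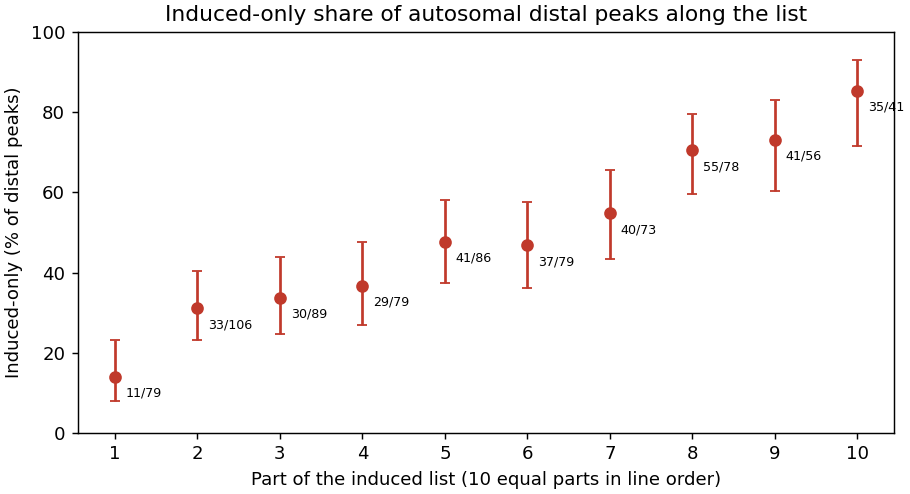
Induced-only share of the autosomal distal peaks of the induced list, in percent with Wilson 95% intervals, in each of 10 equal parts of the lines, with counts beside the points. The share is 13.9% at the top of the list and 85.4% at its end.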

How the data were processed

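Per the labels and the study's methods, the authors mapped 50 bp single-end reads with Bowtie2 2.2.9 (genome dm6), filtered for unique mapping with SAMtools 1.3.1, and used HOMER 4.9 to call peaks of 200 bp, at least 2-fold over input. Whether the 2 induced libraries were pooled is not given in the sources used here. The deposited values are peak positions alone, and the condition of each list was inferred from its name.

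Values were computed under Python 3.11.15 with numpy 2.4.6, the Wilson intervals with scipy 1.17.1, and plotted by matplotlib 3.10.9. The annotation was 35694 transcripts and 5896 transposable elements of Ensembl release 115, with the RefSeq Release 6 sequence. Of 544949 tiles of 200 bp, 502621 were distal. Exons took precedence over introns. Pericentromeric parts were 2L beyond 22 Mb, 2R before 5.5 Mb, 3L beyond 23 Mb and 3R before 4 Mb. The code was tested on simulated lists with planted overlaps, distances and motifs.

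Named were genes with 2 or more members, the 10 members first by line, the 5 farthest from a start, the 3 on each side of each limit, up to 10 with Motif 1, DRE, Su(Hw) or CTCF, those within 5000 bp of a listed gene, the first in repeats and the 5 leading words of 8 letters. One of the peaks so named is not reported here. The members and lists were chosen with earlier results of these data known. Overlap, start distance, annotation, match window and list order were varied as alternatives.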

Additional observations from a re-analysis of the deposited data

How the results depend on the processing

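No paired analysis was possible because the libraries of a condition were not given separate lists. For the same reason no replicate could be left out, and a stricter threshold could not be set without scores, so the first part of each list in line order was taken in its place. Of 104 alternative values, 79 stayed within the interval of the value reported, or a count within 1.5 times of it, and 25 moved. The 352 peaks became 228 with a limit of 1000 bp to a start and 201 with the first part of each list, and 277 to 377 under the others. In both of the first 2 settings fewer peaks were compared. The 201 exceed the 144 members in lines 1 to 990. They include peaks whose uninduced counterpart stood in the part of its list that was left out. The exon share was 17.3% when any exon overlap counted. Motif 1 was at 0% in the central 100 bp and 0% in lines 1 to 990, and the DRE at 0% in those lines. The transposable element share was 2.87% without pericentromeric parts. The transcript-end share was 19.6% within 250 bp and 36.1% within 1000 bp, by construction of the limit. In shared peaks the CTCF share was 3.14% to 6.76% and the Su(Hw) share 9.42% to 15.7% over the match windows. Settings that use transcript ends, or that take motif shares in lines 1 to 990 or after them, were chosen after seeing the data. Taking the first part of each list was planned. Unknown depth limits every count.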

Other observations

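Motif shares by position among the distal induced-only peaks are given for 2 words. The heat shock element was in 29 of 197 intergenic peaks (14.7%, 10.4 to 20.3) and 7 of 117 intronic ones (5.98%, 2.93 to 11.8), and its share was 10.4% and 10.3% in the tiles of these classes. The intervals of the intergenic and intronic peaks overlap. In shared peaks it was 9.43% between genes and 11.7% in introns. AP-1 words were in 3 intergenic peaks (1.52%, 0.519 to 4.38) and 10 intronic ones (8.55%, lower bound 4.71, above the intergenic interval), with 3.62% and 4.50% in the tiles, and in 5.19% of intergenic and 4.32% of intronic shared peaks. These shares were picked out of those for 12 motifs in 3 positions after they were seen, and they were not tested.

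Of the distal induced-only peaks, 182 held at least 1 of the 12 motifs (51.7%, 46.5 to 56.9), against 217 of the shared peaks (52.4%, 47.6 to 57.2) and 41.3% of the tiles.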
